A study of Mus musculus with 6 samples.

Results

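The 8 genes described here are the Zfp36 family (Zfp36, Zfp36l1 and Zfp36l2) and the BTG/Tob family (Btg1, Btg2, Btg3, Tob1 and Tob2), whose proteins send mRNAs to decay or restrain proliferation. They were taken by gene symbol from 23574 genes with a summed count, 3 in the first family and 5 in the second, by a rule that names symbols and sets no threshold on a measured value. The RNA libraries, made with TruSeq kits, came from haematopoietic stem cells of Hlf knockout C57BL/6 mice (3 libraries) and of their wild-type littermates (3 libraries). Each library came from 3000 freshly isolated cells sorted as negative for lineage markers, CD34 and Flt3 and positive for Sca-1 and c-Kit. Hlf, a PAR bZIP gene, encodes the DNA-binding protein hepatic leukaemia factor, and the study asked how its loss bears on stem cell quiescence. The sources used here do not give the age of the mice, the part of Hlf removed, or whether libraries came from separate animals. P-values therefore measure only the spread between these libraries, some of which may be technical.

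Zfp36 proteins carry a pair of CCCH zinc fingers that bind AU-rich stretches in the tails of short-lived mRNAs, and they recruit the CCR4-NOT complex, which shortens the poly(A) tail. BTG and Tob proteins reach the same complex from another side: they bind its Cnot7 and Cnot8 deadenylase subunits and poly(A)-binding protein, and were first known as proteins that slow cell division. In blood, Zfp36 is an immediate early gene, Zfp36l2 is needed for the stem cell pool, and Btg1 and Btg2 are linked to quiescence of lymphocytes and progenitors.

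The 3 Zfp36 family mRNAs share a sequence feature that the rule did not use. Each holds, in its 3′ UTR, 1 copy of the nonamer TTATTTATT (written as DNA), the site that Zfp36 proteins themselves prefer, and none of the BTG/Tob mRNAs holds it. These sites are shown because they are the letters the family reads. They come from the GENCODE M21 transcripts (GRCm38) matched to the counted RefSeq transcripts, with the nonamer in capitals.
Zfp36: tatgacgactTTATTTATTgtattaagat
Zfp36l1: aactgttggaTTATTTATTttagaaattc
Zfp36l2: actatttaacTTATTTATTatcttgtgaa
The nonamer starts at base 589 of a 3′ UTR of 774 bases in Zfp36, at base 1404 of 1835 in Zfp36l1, and at base 821 of 1822 in Zfp36l2. Of 12314 genes with a 3′ UTR of at least 500 bases, 3.35% held the nonamer in the last 500 bases, where it lay in Zfp36 and Zfp36l1 but not in Zfp36l2. The shorter core ATTTA, which overlaps the nonamer, occurred 3 times in the 3′ UTR of Zfp36, 9 times in that of Zfp36l1, 5 times in that of Zfp36l2 and 11 times in that of Btg1. In Btg2, Btg3, Tob1 and Tob2 it occurred 5, 4, 3 and 4 times. In the last 500 bases it occurred 3, 4 and 0 times in Zfp36, Zfp36l1 and Zfp36l2. There it occurred 1, 0, 2 and 1 times in Btg1, Btg2, Tob1 and Tob2. Over the 12314 genes the median was 1, and 12.4% held 3 or more. No share over whole 3′ UTRs was computed for the nonamer or for ATTTA. A match describes letters and does not show binding.

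Promoters are shown for Zfp36 and Btg1, the pair of members whose genotypes did not overlap, and for Btg2, the closest relative of Btg1, whose genotypes did. The windows run from 250 bases before to 50 after the start and come from RefSeq (GRCm38.p6, whereas the counts used mm9). This source held 7 of the 8 members, all but Zfp36l2, whose promoter was not searched. Capitals mark any match, on either strand, to the serum response element (CArG box), to TTACGTNA, to TGACGTCA, to TGANTCA or to TATAAA.
Zfp36, chr7:28379179-28379478, minus strand: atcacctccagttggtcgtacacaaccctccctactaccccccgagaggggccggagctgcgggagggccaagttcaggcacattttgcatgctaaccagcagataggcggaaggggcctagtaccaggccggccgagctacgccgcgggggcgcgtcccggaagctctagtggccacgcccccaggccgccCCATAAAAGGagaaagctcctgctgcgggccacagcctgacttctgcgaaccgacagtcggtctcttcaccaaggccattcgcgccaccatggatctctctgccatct
Btg1, chr10:96616751-96617050, plus strand: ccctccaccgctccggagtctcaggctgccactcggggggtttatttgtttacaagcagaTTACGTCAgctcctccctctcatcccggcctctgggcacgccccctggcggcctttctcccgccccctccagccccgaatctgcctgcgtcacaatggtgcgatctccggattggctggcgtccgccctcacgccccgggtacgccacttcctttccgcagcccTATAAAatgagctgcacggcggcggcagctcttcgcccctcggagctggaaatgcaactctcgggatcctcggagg
Btg2, chr1:134079106-134079405, minus strand: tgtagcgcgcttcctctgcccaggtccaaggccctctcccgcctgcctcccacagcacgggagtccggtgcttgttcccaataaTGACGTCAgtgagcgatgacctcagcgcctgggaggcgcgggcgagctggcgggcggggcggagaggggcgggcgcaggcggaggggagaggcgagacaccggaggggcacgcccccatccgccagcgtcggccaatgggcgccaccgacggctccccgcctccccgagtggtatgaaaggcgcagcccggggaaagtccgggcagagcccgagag
The Zfp36 window held a serum response element, CCATAAAAGG, at positions -58 to -49 from the start, a match found in 1.63% of 32851 promoters. The Btg1 window held TTACGTCA at -190 to -183, a match to TTACGTNA, which is a looser form of the palindrome TTACGTAA that PAR bZIP factors such as Hlf bind. The looser form occurred in 0.898% of all promoters and the full palindrome in 0.119%. No promoter of the 7 members with an entry held the palindrome. In Btg2 the cyclic AMP response element TGACGTCA lay at -166 to -159 (1.79% of promoters). TATAAA was found in Btg1 at -26 to -21, and also in the Zfp36l1 and Tob1 windows (13.6% of promoters). The AP-1 motif TGANTCA was found in Zfp36l1 alone among the 7 members with an entry (7.81%). Sp boxes, GGGCGG, left in lower case above unless they overlap another match, occurred in all 7 genes with an entry but Zfp36l1 (35.7%). In Zfp36 the Sp box and the serum response element share the base at -58. No peak or binding data were used here, so these are descriptions of letters only.

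The libraries held 8346335 to 9902102 counts in wild type and 10182464 to 11998296 in knockout. Levels are given as CPM, that is, counts relative to library size after TMM scaling. Wild-type libraries were less alike (Pearson's r of log2 CPM 0.749 to 0.805, over genes, which are no independent replicates) than knockout libraries (0.869 to 0.883). Wild-type library 1 stood apart on the first principal component (36.4% of the variance) and wild-type library 2 on the second (24.5%). Hlf fell with a log2 fold change of -5.33 (SE 0.26, edgeR adjusted p = 1.9e-06), from a wild-type mean of 1382 ± 274 CPM to a knockout mean of 34.4 ± 5.30 CPM (SD, n = 3 each). It was the 1 gene of 10204 tested that passed edgeR's quasi-likelihood test at an adjusted p under 0.05, which is 0.0098% of genes. The stem cell genes Gata2, Fgd5, Mecom and Procr had counts in every library, with totals of 33279, 4784, 8822 and 2813. Of the sort genes, Flt3 was at 88 to 318 counts, and Kit, Ly6a and Cd34 had totals of 1, 0 and 24. Kit and Cd34 have 2 listed transcripts each and Ly6a has 6, and genes with several transcripts had a median total of 3 counts in these files against 79 for genes with 1. All 8 members have 1 listed transcript.

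Of the 8 members, 7 were tested and 0 passed edgeR's quasi-likelihood test or limma-voom adjusted over all genes. Zfp36 and Btg1 had lower values in every knockout library than in any wild-type library, 2 of 7 tested members, whereas 6.85% of all tested genes did so and 7.52% were higher without overlap. The same 2 members had an unadjusted edgeR p under 0.05, against 4.65% of all genes with lower values and 2.63% with higher ones. With DESeq2, Zfp36 passed as 1 of 7, where 1.03% of genes passed with lower and 0.522% with higher values. The other 5 tested members overlapped between genotypes, with log2 fold changes from -0.05 to 0.14. The median over the 7 was -0.04, beside -0.05 over all genes tested, of which 52.8% had negative log2 fold changes.

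**Figure D1:**
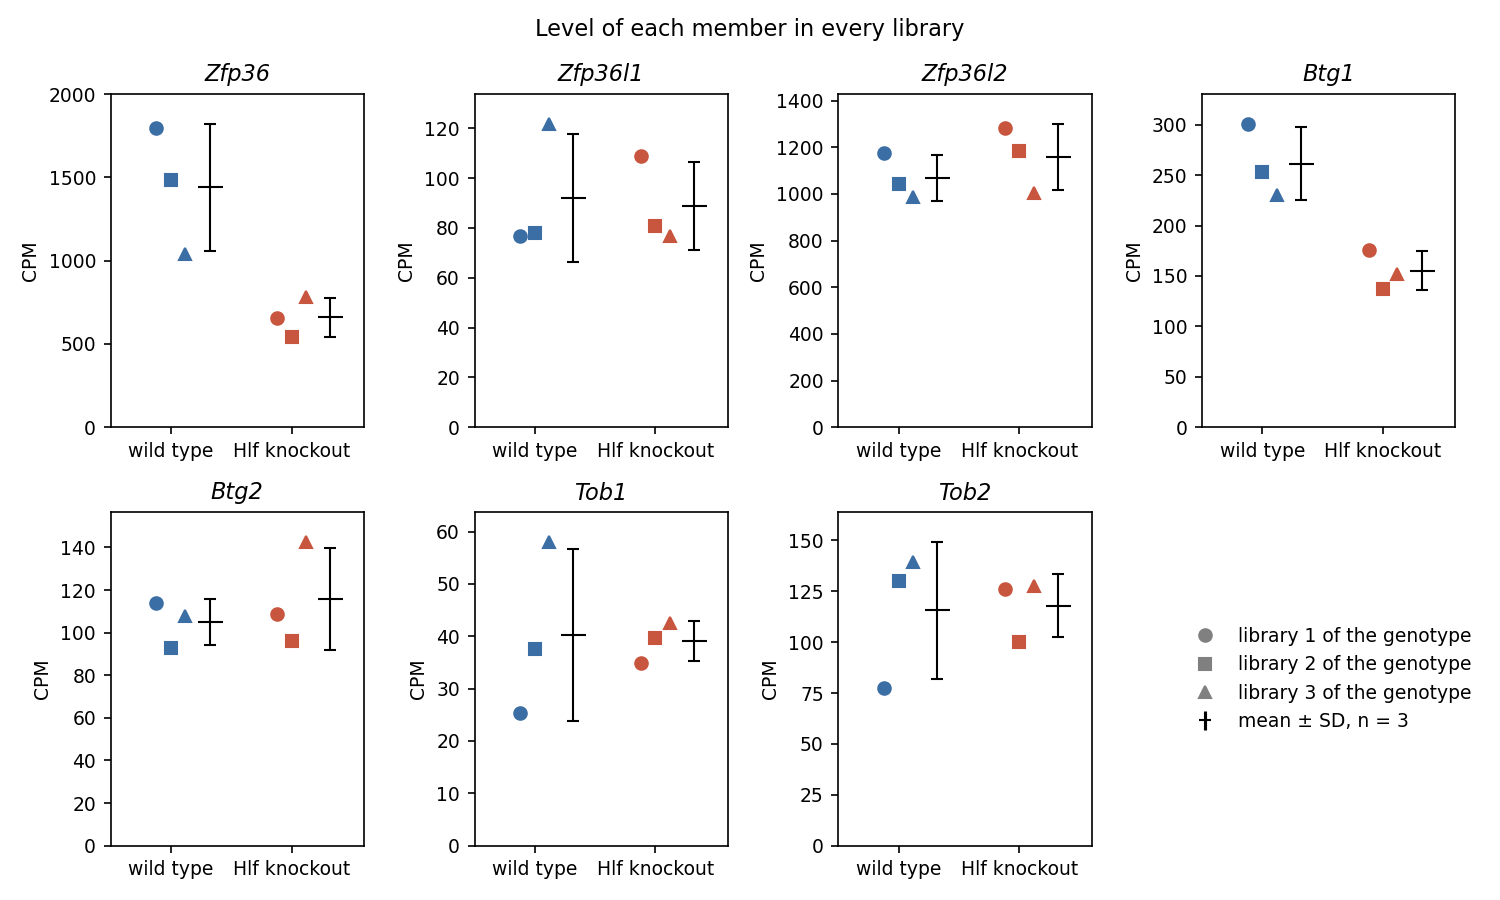
Level of each tested member in CPM (vertical axes from 0) in the 3 wild-type (blue) and 3 Hlf knockout (red) libraries, with the mean and SD of each genotype in black. The knockout points of Zfp36 (543 to 780.5 CPM) and Btg1 (137 to 176 CPM) lie below every wild-type point (1040.3 to 1797 and 230.3 to 301 CPM), and the points of the other 5 genes overlap.

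Zfp36 encodes tristetraprolin, the AU-rich element binding protein that limits Tnf and other cytokine mRNAs. It stood at 1797, 1486 and 1040.3 CPM in wild-type libraries 1, 2 and 3 and at 654, 543 and 780.5 CPM in knockout libraries 1, 2 and 3. All 3 knockout libraries were below the lowest wild-type one, and the spread was wider in wild type. The wild-type mean of 1441 ± 381 CPM (SD, n = 3) compared with a knockout mean of 659 ± 119 CPM (SD, n = 3), which is 45.7% of it. The log2 fold change was -1.13 (SE 0.24, 95% interval -1.64 to -0.61, edgeR unadjusted p = 0.00049, adjusted p = 0.37), with rank 13 by p among the genes tested. DESeq2 gave an adjusted p of 0.0107 and limma-voom one of 0.31, and over all 15 alternatives it ran from 0.0107 to 0.9994. A two-sided exact permutation test gave p = 0.1, and 3 libraries against 3 can reach nothing smaller. Counts of 5763 to 14285 put the counting error of each library at 1.32% or less, below the spread between libraries. Leaving out 1 library gave -1.31 to -0.92, the smallest size without wild-type library 1. In sorted bulk samples, fewer cells with high Zfp36 and less Zfp36 RNA per cell cannot be told apart.

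Other gene groups also differed in their sums. The 20 immediate early genes outside the families summed to 9973, 8195 and 5704 CPM in wild-type libraries 1 to 3 and to 4798, 3673 and 4310 CPM in knockout, in the same order as Zfp36 within the wild type. Markers of granulocytes and monocytes were 12 genes, of which S100a9 was at 0 and 8 were tested. All 8 had negative log2 fold changes, and 4 were lower at an unadjusted edgeR p under 0.05 (4.65% of all tested genes were). Without overlap 1 was lower in knockout (6.85% of all tested genes were), and the same gene passed with DESeq2 (1.03% did with lower values). None passed edgeR's test after adjustment. The sums were 634, 638 and 3401 CPM in wild type and 328 to 490.1 CPM in knockout. Mpo, whose genotypes overlapped, stood at 36.5, 45.6 and 1372 CPM in wild-type libraries 1 to 3 and at 56.9, 136 and 57.7 CPM in knockout. Wild-type library 3, with the highest sum of these markers, had the lowest Zfp36 of the wild type, and without it the log2 fold change of Zfp36 was -1.31. Lymphoid and erythroid markers, 14 genes with Hba-a1 and Hbb-b1 at 0, summed to 264 to 383 CPM in wild type and 371 to 576 CPM in knockout. The part of these groups in the Zfp36 result was not tested.

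Zfp36l2, the family member required for definitive haematopoiesis, had overlapping levels. It stood at 1176, 1041 and 988 CPM in wild type and at 1284, 1186 and 1003 CPM in knockout. The genotypes overlapped, and the log2 fold change came to 0.12 (SE 0.18, edgeR adjusted p = 0.93). The 95% interval of -0.29 to 0.52 on the log2 scale leaves out a difference as large as that of Zfp36. Zfp36l1, known for acting on Vegfa and cell cycle mRNAs, stood at 76.7, 77.8 and 121.8 CPM in wild type and at 109, 80.6 and 76.8 CPM in knockout. Its highest value was in wild-type library 3 and its log2 fold change was -0.05 (SE 0.35, 95% interval -0.82 to 0.72, edgeR adjusted p = 0.98). Without wild-type library 3 it was 0.20. An annotated pseudogene, Zfp36l1-ps, matches 903 bases of its transcript at 94.7% identity, and the lincRNA Gm26669 is identical over 1491 bases. How reads shared by such copies were counted is unknown, so the Zfp36l1 values are uncertain.

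The balance between Zfp36 and Zfp36l2 did not overlap between genotypes. Their ratio is taken within a library and does not depend on scaling. There were 1.53, 1.43 and 1.05 counts of Zfp36 for each count of Zfp36l2 in wild type, against 0.51, 0.46 and 0.78 in knockout. Every wild-type library had more Zfp36 than Zfp36l2 counts, and every knockout library had fewer. Per kilobase of transcript, Zfp36 made up 64.2%, 62.4% and 53.8% of the family's CPM in wild type and 36.9%, 34.9% and 47.4% in knockout. Zfp36l2 made up 33.2% to 40.4% in wild type and 48.2% to 60.3% in knockout, and Zfp36l1 at most 5.87% in any library. The family sum was 1003, 853 and 693 CPM per kilobase in wild type and 635, 557 and 589.7 in knockout, so that every knockout library held less of the family together than any wild-type library. The pairing of these genes was chosen with their values known, so the ratio is a description with no test.

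Btg1 is an antiproliferative gene that is abundant in resting lymphocytes. It stood at 301, 253 and 230.3 CPM in wild type and at 176, 137 and 152 CPM in knockout, and the genotypes did not overlap. The wild-type mean was 261 ± 36.0 CPM and the knockout mean, 59.4% of it, was 155 ± 19.6 CPM (SD, n = 3 each). The log2 fold change was -0.75 (SE 0.25, 95% interval -1.29 to -0.21, edgeR unadjusted p = 0.01034, adjusted p = 0.53). It did not pass with DESeq2 (adjusted p = 0.0926) or limma-voom (adjusted p = 0.60), its adjusted p ran from 0.0926 to 0.9994 over the 15 alternatives, and the two-sided exact permutation p was 0.1. Leaving out 1 library gave -0.84 to -0.62. The pseudogene Gm14519 matches 312 bases of the Btg1 transcript at 98.7% identity, and the related genes Btg1b and Btg1c had 0 counts in every library.

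Btg2, a p53 target and an immediate early gene like Zfp36, did not show the lower values of Btg1. It stood at 114, 93.0 and 108 CPM in wild type and at 109, 96.2 and 142.4 CPM in knockout, with the highest value in knockout library 3. The log2 fold change was 0.14 (SE 0.31, 95% interval -0.53 to 0.82, edgeR adjusted p = 0.95), and -0.02 without knockout library 3. The count ratio of Btg1 to Btg2 was 2.64, 2.72 and 2.14 in wild type and 1.62, 1.43 and 1.07 in knockout, without overlap, again as a description of a pair chosen with its values known. Per kilobase, Btg1 made up 31.9% to 45.8% of the 4 detected BTG/Tob genes in wild type and 23.1% to 29.2% in knockout. Btg2 made up 25.6% to 31.6% in wild type and 32.9% to 39.4% in knockout.

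**Figure D2:**
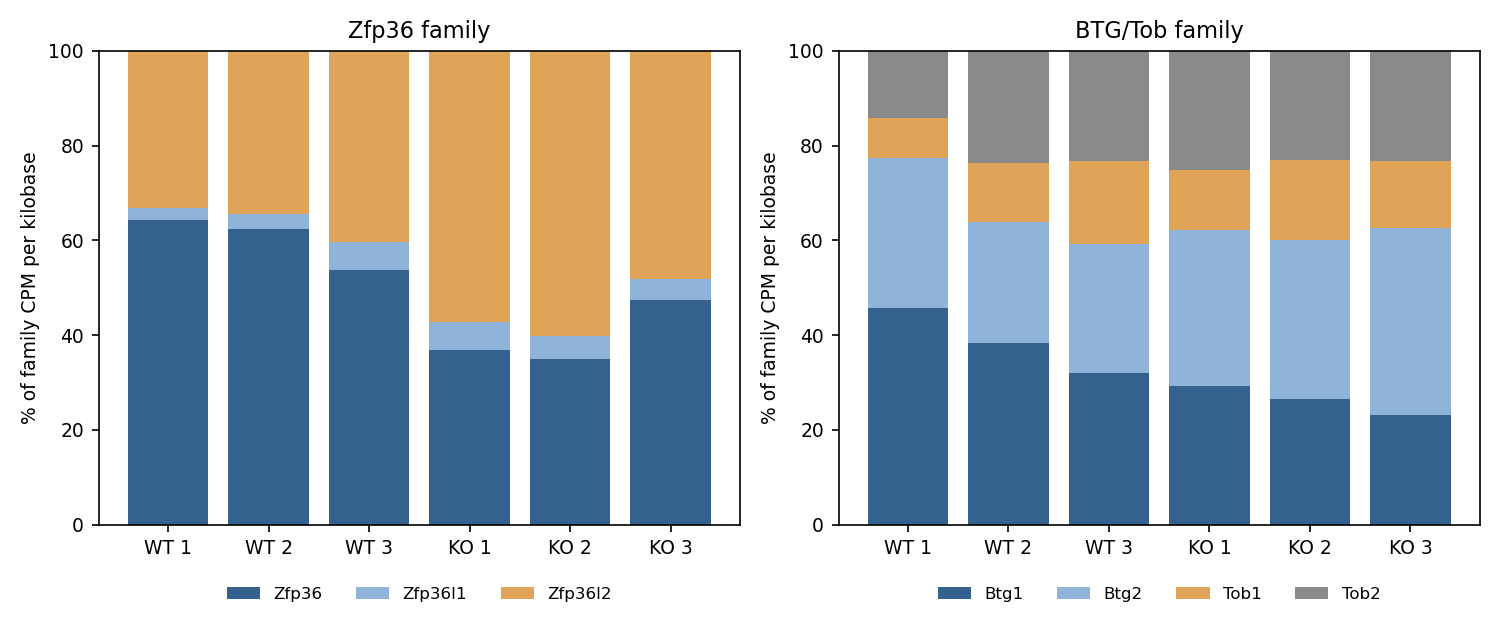
Share of each gene in the CPM per kilobase of its family (stacked bars, 0 to 100%) in each wild-type (WT) and Hlf knockout (KO) library. Zfp36 takes 53.8% to 64.2% of its family in wild type and 34.9% to 47.4% in knockout, and Btg1 takes 31.9% to 45.8% of its family in wild type and 23.1% to 29.2% in knockout.

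Tob1 and Tob2, the larger family members, which also carry motifs that bind poly(A)-binding protein, overlapped between genotypes. Tob1 stood at 25.3, 37.5 and 58.0 CPM in wild type and at 34.9, 39.7 and 42.6 CPM in knockout, so that the wild-type libraries held both its lowest and its highest value. The log2 fold change was -0.04 (SE 0.49, 95% interval -1.12 to 1.03, edgeR adjusted p = 0.99), the widest interval of the tested members. Tob1 lies on chromosome 11, as does Hlf. Tob2 stood at 77.4, 129.9 and 139.5 CPM in wild type, lowest in library 1, and at 126, 99.9 and 128 CPM in knockout. The log2 fold change of Tob2 was 0.03 (SE 0.33, 95% interval -0.69 to 0.74, edgeR adjusted p = 0.99).

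Btg3, which binds E2F1 and restrains its activity, had 0 counts in all 6 libraries and was not tested. A count of 0 allows up to 3 counts, or 0.26 to 0.38 CPM per library, for counting error only. The annotated copy Gm7334 is identical over 756 bases of the Btg3 transcript, which has 1414, and also had 0 counts, so the 0 is not read as lack of expression. The relatives outside the 8 members, Zfp36l3 and Btg4, which are known from placenta and from egg cells, had 0 counts in every library.

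**Figure D3:**
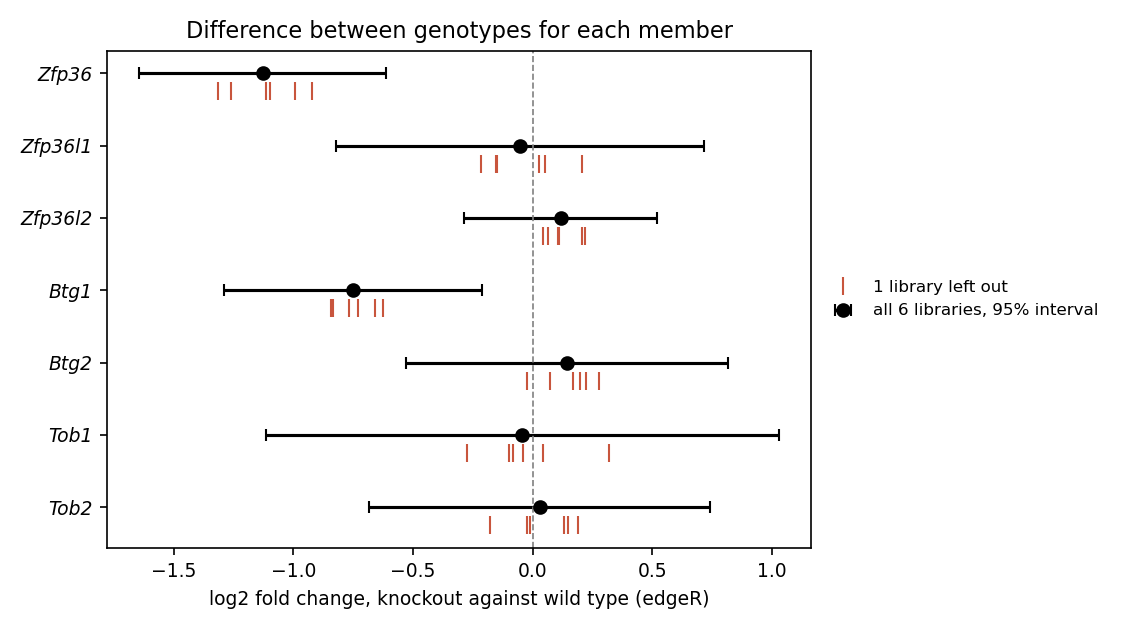
Log2 fold change of knockout against wild type (horizontal axis) for the 7 tested members, with the 95% interval from edgeR (black) and the values with 1 library left out (red ticks). The intervals of Zfp36 (-1.64 to -0.61) and Btg1 (-1.29 to -0.21) lie below 0 before adjustment for the genes tested, and those of the other 5 members span 0.

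Levels were compared between genes per kilobase of transcript. In wild type the order was Zfp36 (517 ± 136 CPM per kilobase), Zfp36l2 (303 ± 27.5), Btg1 (52.3 ± 7.20), Btg2 (38.2 ± 3.91), Zfp36l1 (30.8 ± 8.60), Tob2 (27.8 ± 8.06) and Tob1 (17.6 ± 7.21), each as SD with n = 3. Values from Zfp36 down to Btg2 did not overlap from one gene to the next, while Btg2 and Zfp36l1, Zfp36l1 and Tob2, and Tob2 and Tob1 overlapped. In knockout Zfp36l2 (328 ± 40.4 CPM per kilobase) came before Zfp36 (236 ± 42.6), without overlap. Btg2 (42.2 ± 8.71) came before Btg1 (31.0 ± 3.91), with overlapping values, and Zfp36l1 (29.7 ± 5.89), Tob2 (28.4 ± 3.75) and Tob1 (17.1 ± 1.69) followed. Tob1 was below Tob2 in every knockout library without overlap. The order of Zfp36 and Zfp36l2 was thus the opposite in knockout, as was that of the means of Btg1 and Btg2.

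The genes whose pattern over the 6 libraries was most like that of Zfp36, by the root-mean-square difference of log2 CPM centred on each gene's mean, were Bcl9, Malat1, Diablo and Rere, with differences of 0.11, 0.12, 0.13 and 0.14 among 6610 genes compared (median 0.78). Malat1 stood at 11451, 9378 and 7044 CPM in wild type and at 4879, 4120 and 4816 CPM in knockout, and it shared with Zfp36 the falling order of wild-type libraries 1, 2 and 3. Bcl9 stood at 142.4, 99.4 and 80.4 CPM in wild type and at 53.2, 38.6 and 64.1 CPM in knockout. Among the members, Btg1 was the closest to Zfp36, at 0.26 and rank 50. The measure includes the difference between genotypes, so it favours genes lower in knockout, as Zfp36 and Btg1 were. Their closeness, and the direction of the genes named here, are therefore no independent support. The genes most like Btg1 were Trrap, Rsf1, Edem2 and Limd2, with differences of 0.08, 0.08, 0.10 and 0.11 (median 0.63).

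The list of deadenylation genes, which reaches beyond the enzymes that these families recruit, had values in both directions. Of 20 genes for deadenylases and poly(A)-binding proteins, 15 were tested, 0 passed edgeR's test, 8 had negative and 7 positive log2 fold changes, and the median was -0.10. Noct, which encodes the rhythmic CCR4-related protein nocturnin, was the 1 member of that list with an unadjusted p under 0.05. It stood at 7.38, 2.39 and 6.87 CPM in wild type and at 28.1, 28.2 and 21.7 CPM in knockout, all above wild type. This gave a log2 fold change of 2.23 (SE 0.79, edgeR adjusted p = 0.56, DESeq2 adjusted p = 0.0344), and 1.87 to 2.50 with 1 library left out. Cnot6, a CCR4 deadenylase subunit, stood at -0.74 (SE 0.43) with all libraries and at -0.01 without wild-type library 1. Cnot10 had a value of -0.55 (SE 0.38), or -0.34 when knockout library 2 was left out. The Pan2 partner Pan3 was at -0.30 (SE 0.21), or -0.17 when wild-type library 2 was left out. Cnot1, the scaffold of the complex, was listed at 0 in every library, which is not read as lack of expression, since the counting rules are unknown.

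Decapping and exonuclease genes, 19 tested of 22, had 9 negative and 10 positive values, a median of 0.01 and 0 calls by edgeR. Pnrc1, a coactivator that also binds the decapping enzyme, stood at 374, 329.6 and 234 CPM in wild type and at 182, 183 and 217 CPM in knockout, without overlap, and was the 1 of that list with an unadjusted p under 0.05. This is a log2 fold change of -0.69 (SE 0.25, edgeR adjusted p = 0.57). Dcp1a was at -0.69 (SE 0.37), or -0.36 with wild-type library 1 left out. Lsm5 was at 0.49 (SE 0.41), or 0.27 with wild-type library 2 left out, and Lsm1 at 0.56 (SE 0.54).

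Among other RNA-binding proteins that steer mRNA decay, 11 of 18 were tested, 8 had negative and 3 positive values, and the median was -0.30. Tnrc6b, a GW182 protein of the microRNA pathway with 2 listed transcripts, had the smallest p. Its log2 fold change of -3.61 (edgeR adjusted p = 0.56) rested on wild-type library 1 (162.6 CPM, against 6.34 and 3.44 CPM in the other wild-type libraries), and without that library it was -0.05. The values of Msi2, at -0.49 (SE 0.25), and Rc3h1, which encodes roquin, at -0.33 (SE 0.25), came to -0.27 and -0.16 with wild-type library 1 left out. Elavl1, whose product HuR stabilises AU-rich mRNAs, stood at 0.43 (SE 0.25). None of the 11 passed edgeR's test.

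Zfp36 proteins are held inactive by phosphorylation through the p38 and MK2 kinases and are reactivated by protein phosphatase 2A. Of 12 genes of this kind 10 were tested, 5 with negative and 5 with positive values, a median of -0.02 and 0 calls by edgeR. Mapkapk3, the close relative of the MK2 gene, stood at 198, 175 and 143 CPM in wild type and at 93.4, 94.2 and 119.7 CPM in knockout (log2 fold change -0.75, SE 0.29, edgeR adjusted p = 0.63). Ppp2ca, a catalytic subunit of the phosphatase, stood at 141, 137 and 229.6 CPM in wild type and at 273, 284 and 245 CPM in knockout (0.66, SE 0.27, edgeR adjusted p = 0.64). Both were without overlap, in opposite directions. Mapk3 stood at -0.48 (SE 0.43), with a value of 0.10 without wild-type library 2.

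Known AU-rich mRNAs bound by the Zfp36 family did not stand higher as a list. Of 25, 16 were tested, 10 had negative and 6 positive values, the median was -0.48, and 0 passed edgeR's test. The 3 with an unadjusted edgeR p under 0.05 were all lower, where 4.65% of all tested genes were lower at that threshold. Fos stood at 1930.3, 1121 and 974 CPM in wild type and at 741, 649.98 and 487 CPM in knockout (log2 fold change -1.10, SE 0.27, edgeR adjusted p = 0.43, and -0.73 without wild-type library 1). Dusp1 stood at -0.73 (SE 0.26), Mcl1 at -0.53 (SE 0.20) and Nfkbia at -0.996 (SE 0.64), or -0.26 with wild-type library 1 left out. Il2, Cxcl1, Myc and Vegfa were listed at 0 in every library, which is not read as lack of expression, since the counting rules are unknown. Fos, Dusp1 and Ier3 are also in the immediate early list, so the lists are not independent.

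Immediate early genes are the group in which Zfp36 and Btg2 are usually placed. Of the 20 outside the families 18 were tested, 17 with negative and 1 with positive values, where 52.8% of all tested genes were negative. Of the 18, 6 were lower at an unadjusted edgeR p under 0.05 and 0 higher, against 4.65% and 2.63% of all tested genes. The median was -0.91, and 0 passed the test of edgeR or of DESeq2. Egr1 stood at -1.05 (SE 0.30), Fosb at -1.08 (SE 0.31) and Klf6 at -1.09 (SE 0.32). The wild-type and knockout sums did not overlap. Earlier results on these libraries had shown lower values for this group, so the count is not independent support. Zfp36, at -1.13, lay below the median of the group and within its range (-1.93 for Egr3 to 0.11 for Ier3). Btg2, at 0.14, was above that range.

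**Figure D4:**
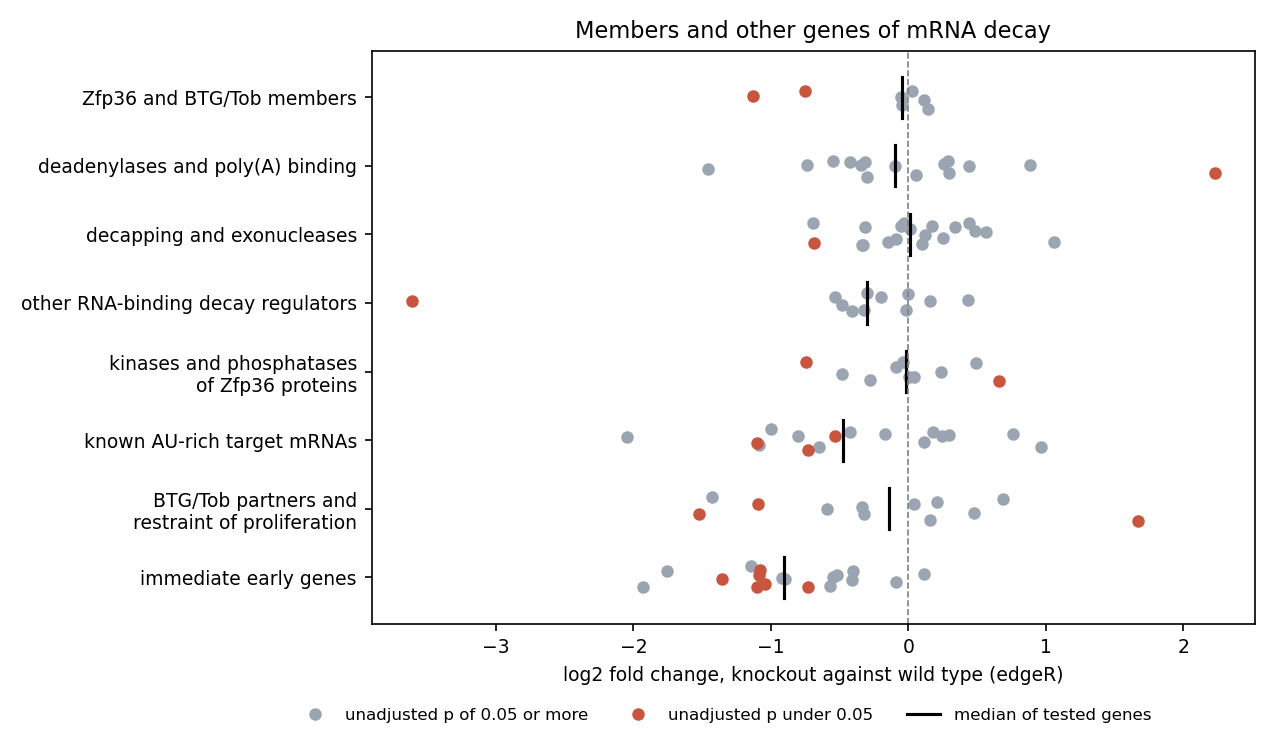
Log2 fold change of knockout against wild type (horizontal axis) for each tested gene of the members and of 7 lists, in red where the unadjusted edgeR p is under 0.05, with the median of each list as a black bar. The medians run from -0.91 for immediate early genes to 0.01 for decapping and exonucleases. With edgeR, 0 of the genes shown passed after adjustment over all genes, whereas Zfp36 and Noct passed with DESeq2.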

How the data were processed

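RNA sequencing data of 6 libraries were used. The values the authors deposited are raw read counts for each RefSeq transcript, and TopHat and the build mm9 are named per the submitters' processing notes. The sources used here do not give the TopHat version, counting tool, strand use or treatment of shared reads. Counts of 30858 transcripts were summed to 23574 genes through the RefSeq gene table of GRCm38.p6 (30363 transcripts) and GENCODE M21 (179), and 316 kept their accession.

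Low genes were removed by filterByExpr (minimum count 10, in total 15), and 6 libraries entered one robust quasi-likelihood fit in edgeR 4.0.16 (R 4.3.3) with TMM scaling and genotype as the sole term. Benjamini-Hochberg adjustment ran over 10204 genes, with a threshold of 0.05. Standard errors came from the F statistic. The prior count of log2 CPM was 2. Alternatives were DESeq2 1.42.0 on all genes with a count, limma-voom (limma 3.58.1), other filters, scaling, a replicate block, thinning, and leaving out each library. Lengths came from GENCODE M21. The fit was tested on simulated data. The named genes are the members, Hlf, the relatives Zfp36l3 and Btg4, from each list the 4 tested genes with the lowest p, and the 4 with the most similar pattern to Zfp36 and to Btg1. A gene that this rule picks is not reported here. Members and lists were chosen with earlier results of these data known.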

Additional observations from a re-analysis of the deposited data

How the results depend on the processing

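Zfp36 kept negative values under all 15 alternatives run (-1.31 to -0.92) and passed under 2 of them, without a filter on low counts (edgeR adjusted p = 0.0497) and with DESeq2. The number of members called was thus 1 in both, against 0 otherwise. Btg1 kept its direction under all 15 (-0.84 to -0.62) with no call, as did Zfp36l2 (0.04 to 0.22). The number of genes called among all genes was 9 without a filter, 170 with DESeq2, 2 with the replicate block and 1 to 3 with 1 library left out. With 1 library left out, values turned sign for Zfp36l1 (-0.22 to 0.20), Btg2 (-0.024 to 0.27), Tob1 (-0.27 to 0.32) and Tob2 (-0.18 to 0.19). Tob1 also stood at 0.013 with limma-voom and at 0.034 with the replicate block, and the causes were not tested. The labels do not say what same-numbered libraries of the genotypes share. Correlations of their deviations from the genotype means were 0.03, -0.01 and 0.04, against -0.06 to 0.02 for other pairs across genotypes. With 3 libraries per genotype these values cannot settle whether a number marks a shared source. The median of all genes was -0.05, and 0.06 with limma-voom and with the block. The block changed no member's call, and Zfp36 stood at -1.11 with it. A prior count of 0.5 left every permutation p of the members as it was. The lowest member counts, 199 for Tob1, put its counting error at 7.09%.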

Other observations

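Genes that restrain proliferation alongside the BTG/Tob family, among them partners of its proteins, showed values in both directions. Of 20 such genes 12 were tested, 6 with negative and 6 with positive log2 fold changes, and 0 passed edgeR's test. Tsc1, which encodes a brake on mTOR signalling, stood at 135, 142 and 87.5 CPM in wild type and at 47.3, 53.2 and 70.3 CPM in knockout, without overlap (log2 fold change -1.09, SE 0.36, edgeR adjusted p = 0.52). Cdkn2c, which encodes the inhibitor p18 of Cdk4 and Cdk6, stood at 7.12, 14.04 and 8.64 CPM in wild type and at 26.5, 38.1 and 30.2 CPM in knockout, all above wild type (1.67, SE 0.66, edgeR adjusted p = 0.64). Klf4 and Klf2, quiescence-associated factors of the Krüppel-like family, stood at -1.52 (SE 0.59) and -1.43 (SE 0.72). Klf4 was at -0.93 without wild-type library 2, and Klf2 at -0.41 without wild-type library 3.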
